A study of Arabidopsis thaliana with 20 samples.

Results

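The genes described here were 35 members of 2 families of auxin-responsive genes of *Arabidopsis thaliana*, the 29 Aux/IAA genes and the 6 genes GH3.1 to GH3.6. They were chosen by locus and not by a measured value, by matching the transcript named for each array probe to the 35 loci. Earlier results of these data were known when the families were chosen. Of the 35 genes, 32 matched at least 1 probe, and 26 (23 Aux/IAA and 3 GH3) were tested, because all arrays of 1 or more groups read their probe well above background. Over the whole series 25410 genes were matched and 19134 were tested.

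RNA was hybridised to 20 one-colour Agilent arrays in 8 groups, from 5-week-old plants of the wild type Col-0 or of *bam1*, a single homozygous line with a T-DNA insertion in the gene for the β-amylase BAM1. Each genotype was sampled as whole leaves and as a stomata-enriched fraction, made by blending leaves without their major veins and collecting the epidermal peels, and each was kept under control watering or under mild drought for 5 days. Controls of leaf Col-0, leaf *bam1* and stomata Col-0 and the drought-stressed leaves of *bam1* had 3 arrays, and the other 4 groups had 2. According to the labels each array was a biological replicate of 5 to 8 pooled plants, so plant-to-plant variation was not measured.

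Aux/IAA proteins are short-lived nuclear repressors that bind auxin response factors (ARFs) and recruit TOPLESS corepressors. Auxin brings them together with TIR1/AFB receptors, which leads to their degradation and frees the ARFs. Many Aux/IAA genes are themselves switched on by auxin, which makes a feedback loop. The GH3 enzymes of this group join auxin to amino acids and so lower the free hormone, and their genes are among the fastest to respond to auxin. In guard cells and leaves auxin is known to affect stomatal opening and growth by cell expansion.

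Levels are log2 processed signals after quantile normalisation over the 20 arrays, and changes are log2 differences of group means ± SE from a limma fit over all 8 groups. A gene was called when its Benjamini-Hochberg adjusted p over all tested probes was under 0.05 and its change was at least 2-fold. Each gene is given by its probe with the highest mean signal. Levels of different genes cannot be compared, because each probe has its own brightness. In RNA from a tissue, fewer cells of a type and less RNA per cell cannot be told apart.

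The genotype and tissue labels were checked first. BAM1 was at 13.46 to 13.97 in the 3 control arrays of Col-0 stomata and at 13.47 on their drought replicate 1. On the array labelled drought replicate 2 of Col-0 stomata it was at 7.81, which lies in the range of the *bam1* arrays (6.45 to 9.71) and goes against its label. The comparisons that use this array were also fitted without it, and those values stand beside the results they bear on. Each of those fits left 1 drought array of Col-0 stomata, with the spread taken from the other groups. Their adjusted p values and calls therefore cannot show how firm a result was. All 9 guard cell markers were called higher in stomata than in leaves under control conditions, with a median change of 3.72 in Col-0 and 2.59 in *bam1*. None of 7 mesophyll markers was called in that comparison, and their summed signal was 20.07 to 20.39 on the log2 scale over all arrays. The summed signal of 8 vascular markers was 16.72 to 17.19 in the stomatal arrays and 15.33 to 15.75 in the leaf arrays. The brightest markers weigh most in such a sum. In control Col-0 3 of the 8 were called higher and 2 lower in stomata (median 0.06), and in *bam1* 4 and 2 (median 0.24). All 9 guard cell, 7 mesophyll, 8 vascular and 8 epidermal markers were well above background on all 20 arrays, and how much RNA each cell type gave to the stomatal fraction was not measured. On 63.2 to 75.4% of the spots the signal was well above background, and 0 spots were saturated.

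A repressor pair and a conjugating enzyme fell under drought in both tissues and both genotypes. The repressor genes IAA6 (AT1G52830) and IAA19 (AT3G15540) and the enzyme gene GH3.6 (AT5G54510), also known as DFL1, were called lower in all 4 drought comparisons, as were 100 of the 19134 genes tested (0.523%). The same 3 members were also lower under drought in Col-0 stomata without the array that went against its label, on 1 drought array. IAA17 (AT1G04250) and GH3.3 (AT2G23170) were called lower in 2 of the 4, and IAA5 (AT1G15580) and GH3.5 (AT4G27260) in 1. The remaining 19 tested members were not called lower in any, and 1 of these, IAA28, was called higher in leaves of Col-0.

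In leaves of Col-0, 4 of the 26 tested members were called, 1 higher and 3 lower, against 6.03% of all tested genes in either direction, 2.26% higher and 3.77% lower. In leaves of *bam1* 4 were called and all 4 were lower (all genes 5.43%, with 1.56% higher and 3.87% lower). In stomata of Col-0 6 were called, all lower (all genes 3.61%, 1.9% higher, 1.71% lower), while stomata of *bam1* had 5, all lower (all genes 6.42%, 3.08% higher, 3.34% lower). In each comparison the share of members called lower was above that of all genes. When the array labelled drought replicate 2 was left out, 1 drought array of Col-0 stomata remained, and the members' median change there was -0.18. The median change of the 26 members was -0.24 in leaves of Col-0, -0.47 in leaves of *bam1*, -0.11 in stomata of Col-0 and -0.16 in stomata of *bam1*, where the medians of all genes were -0.02, 0, 0.02 and 0.03. Negative changes numbered 17, 20, 16 and 17 of 26 in the same order.

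**Figure D1:**
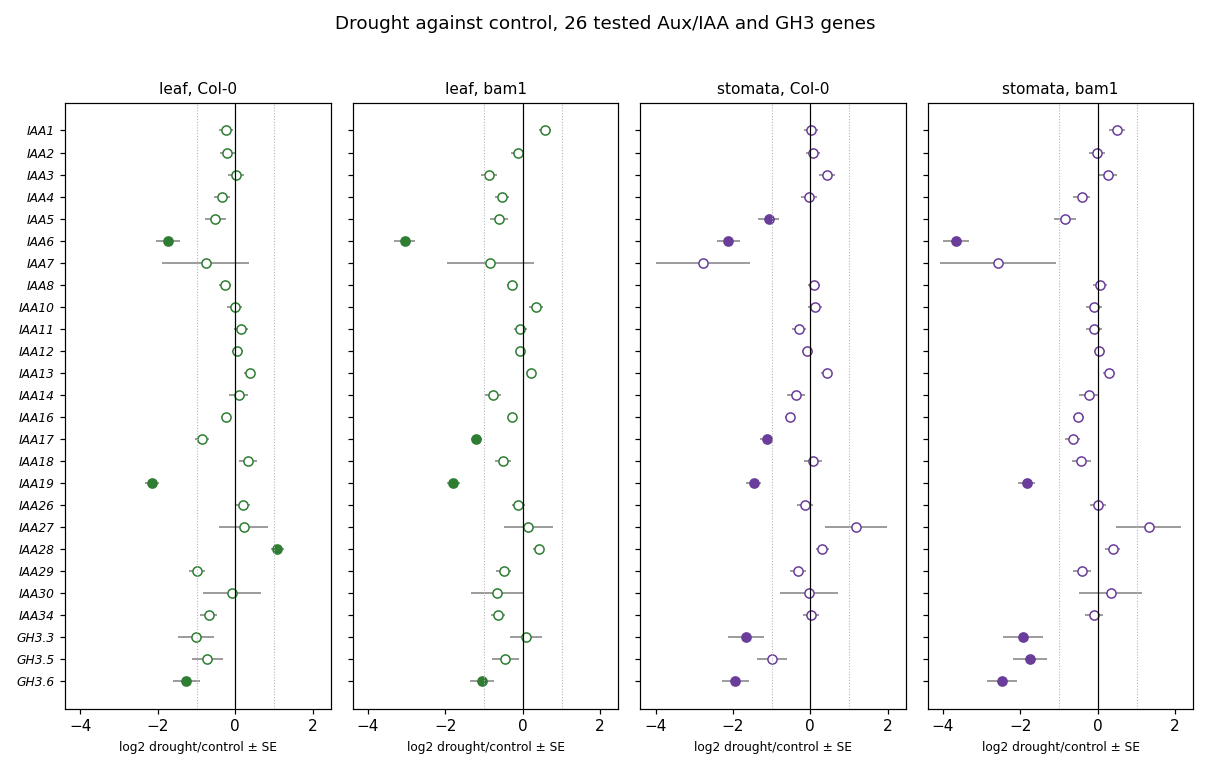
Log2 change under drought against control (± SE) of the 26 tested Aux/IAA and GH3 genes in leaves (green) and stomata (purple) of Col-0 and *bam1*, with filled points for called genes and dotted lines at a 2-fold change. Filled points lie on the negative side except for IAA28 in leaves of Col-0, and the bars of IAA7, IAA27 and IAA30 are the widest of the Aux/IAA genes.

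IAA6, a repressor known from the *shy1* mutant, had the largest called fall among members in 3 of the 4 drought comparisons. The exception was leaves of Col-0, where the fall of IAA19 was larger. The IAA6 signal in leaves of Col-0 was 8.93, 9.68 and 9.16 under control conditions and 7.19 and 7.84 under drought. Leaves of *bam1* gave 10.42, 9.85 and 10.19 in the controls and 7.34, 7.22 and 6.75 under drought. In neither genotype did a drought array reach the lowest control array. The fall in Col-0 leaves was 3.33-fold (-1.74 ± 0.30, adjusted p 0.00166), and in *bam1* leaves it was 8.26-fold (-3.05 ± 0.27, adjusted p 1.4e-05).

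In the stomatal fraction of Col-0 the IAA6 signal was 7.98, 8.14 and 8.20 in the controls, 5.84 on the drought array replicate 1 and 6.12 on the array labelled replicate 2. That of *bam1* gave 8.40 and 9.39 in the controls and 5.41 and 5.04 under drought. The 4 drought arrays were the lowest of all 20 for this gene. IAA6 changed by -2.12 ± 0.30 (4.35-fold lower, adjusted p 0.00102) in Col-0 and by -3.67 ± 0.33 (12.7-fold lower, adjusted p 2.4e-05) in *bam1*. The change in Col-0 was -2.27 (adjusted p 0.00420) when the array labelled drought replicate 2 was left out. With the normexp background correction it was -1.28 in Col-0 and -2.12 in *bam1*, both still called.

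Since IAA6 fell further in *bam1* than in Col-0 in either tissue, the difference itself was tested. The drought effect in *bam1* minus that in Col-0 was -1.31 in leaves, with a 95% interval of -2.18 to -0.44 and an adjusted p of 0.270. In stomata it was -1.54, with an interval of -2.51 to -0.58 and an adjusted p of 0.618, or -1.40 (-2.52 to -0.28, adjusted p 0.568) without the array labelled drought replicate 2 of Col-0 stomata. Neither passed the adjustment over all tested probes. Of all genes 0.00523% were called in leaves and 0.0209% in stomata (0.0105% in each direction). No member was called in these 2 comparisons of the drought effect between genotypes.

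IAA19, the repressor altered in the *msg2* mutant, in which hypocotyl growth responses to light and gravity are impaired, was lower on every drought array than on any control array of its tissue. Its signal in leaves of Col-0 was 10.75, 10.75 and 10.55 in the controls and 8.59 and 8.49 under drought. The arrays of *bam1* leaves read 10.23, 10.04 and 10.65 against 8.67, 8.53 and 8.32. Drought arrays thus lay more than 1 log2 unit below every control array. The fall was 4.42-fold in Col-0 (-2.15 ± 0.19, adjusted p 1.4e-05) and 3.49-fold in *bam1* (-1.80 ± 0.17, adjusted p 1.9e-05).

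Stomata started from a lower IAA19 level and fell again. In Col-0 the controls gave 8.59, 8.63 and 8.77, and the drought arrays gave 7.14 for replicate 1 and 7.28 for the array labelled replicate 2. In *bam1* the values were 8.71 and 9.32 against 7.26 and 7.09. In Col-0 the control level in stomata was close to the drought level in leaves. The changes were -1.46 ± 0.19 (2.74-fold, adjusted p 5.3e-04) in Col-0, or -1.53 without the array labelled drought replicate 2, and -1.84 ± 0.21 (3.59-fold, adjusted p 1.3e-04) in *bam1*.

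IAA17, known from the *axr3* mutants with strongly altered auxin responses, was lower under drought in each comparison at an adjusted p under 0.05 but passed 2-fold in 2 of them. In leaves of *bam1* it was at 11.28, 11.34 and 11.90 in the controls and at 10.40, 10.25 and 10.29 under drought (-1.20 ± 0.15, adjusted p 1.7e-04). The stomatal arrays of Col-0 were at 10.96, 10.80 and 11.16 against 9.89 and, on the array labelled replicate 2, 9.79 (-1.13 ± 0.17, adjusted p 0.00144), or -1.08 without that array. The groups did not overlap in either case. The changes were -0.86 (adjusted p 0.00410) in leaves of Col-0 and -0.65 (adjusted p 0.0349) in stomata of *bam1*. A second, dimmer probe of IAA17 was called lower in leaves of *bam1* (-1.54), stomata of Col-0 (-1.09) and stomata of *bam1* (-1.22). Without leaf *bam1* control replicate 3 the fall of the brighter probe in *bam1* leaves was just under 2-fold.

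IAA5, a close relative of IAA6 and IAA19, was called only in stomata of Col-0. Its signal there was 10.15, 10.01 and 10.22 in the controls, 9.21 on drought replicate 1 and 8.91 on the array labelled drought replicate 2. This was a fall of 1.07 ± 0.27 (adjusted p 0.0237), which was lost without the array labelled drought replicate 2 (-0.92, adjusted p 0.121), without any of 3 other arrays of the comparison, and with the slide as a block (-0.54, adjusted p 0.347). In the other 3 comparisons the change was -0.52 (leaves of Col-0), -0.61 (leaves of *bam1*) and -0.85 (stomata of *bam1*), and none was called.

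**Figure D2:**
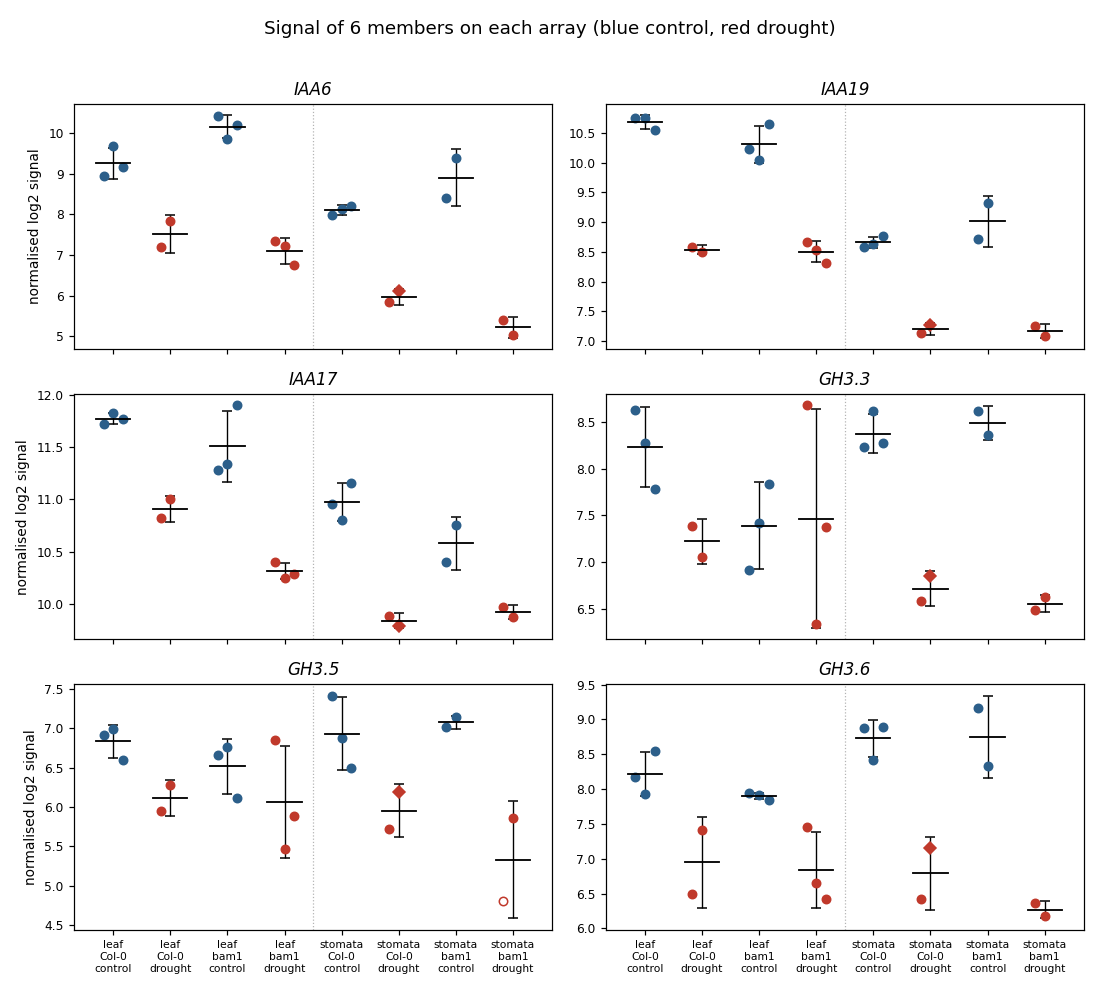
Normalised log2 signal of IAA6, IAA19, IAA17, GH3.3, GH3.5 and GH3.6 on each array of the 8 groups, with control arrays in blue, drought arrays in red, the group mean as a black line and its SD as the error bar. The diamond is the array labelled drought replicate 2 of Col-0 stomata and the open circle is a value not well above background. In stomata every drought array of these genes lies below every control array of its genotype.

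More GH3 genes were called lower in the stomatal fraction than in leaves, but for none of them was the difference between tissues called. Of the 3 tested, 2 were called lower in stomata of Col-0 (all genes 1.71%) and 3 in stomata of *bam1* (all genes 3.34%). In leaves 1 was called lower in each genotype (all genes 3.77% in Col-0 and 3.87% in *bam1*). Their changes ranged from -1.94 to -0.98 in stomata of Col-0, from -2.48 to -1.75 in stomata of *bam1*, from -1.27 to -0.72 in leaves of Col-0 and from -1.06 to 0.08 in leaves of *bam1*.

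GH3.6 gave 8.88, 8.42 and 8.89 in control stomata of Col-0, 6.42 on drought replicate 1 and 7.16 on the array labelled replicate 2. In *bam1* stomata it gave 9.17 and 8.33 in the controls and 6.36 and 6.18 under drought. Drought arrays were lower than all controls in both genotypes. It changed by -1.94 ± 0.35 (3.83-fold lower, adjusted p 0.00403) in Col-0 and by -2.48 ± 0.38 (5.59-fold lower, adjusted p 0.00102) in *bam1*. In Col-0 the change was -2.31 (adjusted p 0.00643) without the array labelled drought replicate 2, and the call was lost without replicate 1 (-1.57, adjusted p 0.0679). In *bam1* it was lost with the slide as a block (-1.96, adjusted p 0.0707).

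In leaves GH3.6 was at 8.18, 7.93 and 8.55 against 6.49 and 7.41 in Col-0. It was at 7.94, 7.92 and 7.85 against 7.45, 6.65 and 6.42 in *bam1*. The drought arrays lay below the controls but were more scattered than these. The changes were -1.27 ± 0.35 (adjusted p 0.0258) and -1.06 ± 0.31 (adjusted p 0.0362). Both leaf calls were close to the threshold. That in Col-0 was lost when drought replicate 1 (-0.81, adjusted p 0.283), the first control (-1.29, adjusted p 0.0514) or the last control (-1.10, adjusted p 0.0897) was left out, and that in *bam1* was lost without any array but drought replicate 1 of the 6, with the slide as a block (-0.91, adjusted p 0.199) and under the normexp correction (-0.66).

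GH3.3 was called only in the stomatal fraction. In Col-0 it gave 8.23, 8.62 and 8.28 in the controls, 6.58 on drought replicate 1 and 6.85 on the array labelled replicate 2 (-1.66 ± 0.47, adjusted p 0.0432). In *bam1* it gave 8.62 and 8.36 against 6.49 and 6.62 (-1.93 ± 0.52, adjusted p 0.0247). The stomatal groups did not overlap and their arrays were close together, while the SE is wide because GH3.3 scattered in drought-stressed leaves of *bam1* (8.68, 6.34 and 7.37). Leaves of Col-0 gave 8.63, 8.28 and 7.78 in the controls and 7.39 and 7.05 under drought, which was not called (-1.01). Both stomatal calls were lost when any single array of their comparison was left out, with the adjusted p at 0.0769 to 0.234 in Col-0 (0.0934 and a change of -1.79 without the array labelled drought replicate 2) and at 0.0842 to 0.106 in *bam1*, and also with the slide as a block (adjusted p 0.249 and 0.111).

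GH3.5, also known as WES1, an enzyme that in addition acts on salicylic acid, was called only in stomata of *bam1*. It was at 7.02 and 7.14 in the controls and at 4.8 and 5.86 under drought, where the first array was not well above background (-1.75 ± 0.43, adjusted p 0.0155). Without that array the change was -1.21 (adjusted p 0.142), without control replicate 2 the adjusted p was 0.0872, and with the normexp correction the change was -0.89. Stomata of Col-0 were at 7.42, 6.88 and 6.50 against 5.72 and, on the array labelled replicate 2, 6.19 (-0.98, or -1.21 without that array, not called). A second probe of GH3.5 changed by -0.01 in stomata of Col-0 and by -0.96 in stomata of *bam1*, a smaller fall than that of the brighter probe in each genotype.

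The falls of GH3 genes in stomata were also set against those in leaves. The drought effect in stomata minus that in leaves of *bam1* was -2.01 for GH3.3 (95% interval -3.44 to -0.58, adjusted p 0.326), -1.42 for GH3.6 (-2.48 to -0.36, adjusted p 0.354) and -1.30 for GH3.5 (-2.48 to -0.12, adjusted p 0.473). In Col-0 the same differences were -0.65, -0.67 and -0.25, each with an interval that included 0, and without the array labelled drought replicate 2 they were -0.79, -1.04 and -0.49, again with intervals that included 0. No member was called, against 1.79% of all genes for Col-0 (of which 1.23% higher, 0.564% lower) and 0.0784% for *bam1* (0.0575% higher and 0.0209% lower). Without that array no member was called in Col-0 either, against 1.59% of all genes. For IAA19 the difference was 0.69 in Col-0 (0.12 to 1.26, adjusted p 0.189), or 0.62 (-0.06 to 1.29) without that array, and -0.04 in *bam1* (-0.62 to 0.53).

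IAA28, a repressor known from its gain-of-function mutant with few lateral roots, was the only member called higher under drought. In leaves of Col-0 it was at 10.57, 10.67 and 10.50 in the controls and at 11.54 and 11.78 under drought (1.08 ± 0.17, 2.12-fold, adjusted p 8.2e-04). Every drought array was above every control array, and without drought replicate 2 the rise was 0.96 and under 2-fold. In the other comparisons it changed by 0.41 in leaves of *bam1*, by 0.31 in stomata of Col-0 and by 0.38 in stomata of *bam1*, none of them called.

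A further group of Aux/IAA genes passed the adjusted p under drought but not the 2-fold threshold. IAA29, a gene induced in shade, changed by -0.99 in Col-0 leaves (adjusted p 0.00620). IAA34, a member with an altered degradation motif, changed by -0.69 and -0.63 in leaves of Col-0 and *bam1*. IAA3, IAA14 and IAA1, known respectively from the *shy2*, *slr* and *axr5* mutants, changed by -0.87, -0.77 and 0.57 in leaves of *bam1*. IAA16 changed by -0.53 in stomata of Col-0, which did not pass without the array labelled drought replicate 2 (-0.50, adjusted p 0.0852), and by -0.50 in stomata of *bam1*. IAA2, IAA4, IAA8, IAA10, IAA11, IAA12, IAA13, IAA18 and IAA26 passed neither threshold in any of the 4 drought comparisons, with changes between -0.54 and 0.42 in the fit on all arrays.

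IAA7, IAA27 and IAA30 had the largest SE of the Aux/IAA genes. The brightest probe of IAA7, the gene altered in *axr2*, was at 12.02 and 12.11 in control stomata of Col-0, with the third array an outlier spot that was left out, and at 7.04 and 11.53 under drought. In *bam1* stomata 1 control array gave 11.90, the other was an outlier spot, and the drought arrays gave 7.54 and 11.11. The mean changes of -2.78 and -2.58 thus rest mostly on drought replicate 1 of each genotype, and neither was called. When the array labelled drought replicate 2 was left out, IAA7 was called in Col-0 stomata (-5.03, adjusted p 0.0150), on the value of 1 drought array. The second probe of IAA7 changed by -0.72 and -1.08 and was not called either. IAA27 had outlier spots on drought replicate 1 of both genotypes in stomata and fell to 8.07 on 1 control array of Col-0 stomata, and IAA30 was not well above background on 10 of 20 arrays.

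Markers of other cell types were read beside the drought results. In stomata of Col-0 no guard cell, 0 of 7 mesophyll, 2 of 8 vascular (both higher) and 1 of 8 epidermal markers (higher) were called under drought. All 9 guard cell markers had negative changes there, with a median of -0.57. Without the array labelled drought replicate 2 the calls in Col-0 stomata were 1 guard cell marker (lower) and 2 vascular markers (both higher), and the guard cell median was -0.53. In stomata of *bam1* the counts were 0, 0, 3 (2 higher and 1 lower) and 0. In leaves 2 of 8 epidermal markers were called in each genotype (1 higher and 1 lower), with 1 guard cell marker higher in Col-0 and 1 vascular marker lower in *bam1*. The median over guard cell markers was -0.11 in leaves of Col-0, -0.41 in leaves of *bam1* and -0.24 in stomata of *bam1*. The summed guard cell signal was 15.28 to 15.97 in control and 15.21 to 15.25 in drought-stressed stomata of Col-0, and 14.70 to 15.84 and 14.95 to 15.07 in *bam1*. The summed epidermal signal was 17.53 to 17.69 and 18.02 to 18.12 in stomata of *bam1*, and 17.19 to 17.94 and 17.78 to 17.91 in Col-0. The part of these shifts in the changes of IAA6, IAA19 and the GH3 genes was not tested.

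The arrays lay on 6 slides. Slide 1 held both groups of the leaf comparison in Col-0, with 1 array each, and there IAA6 differed by -1.74, IAA19 by -2.16, GH3.6 by -1.68 and IAA28 by 0.98. On slide 6, which held 1 array each of control and drought-stressed *bam1* leaves, the differences were -3.43 for IAA6, -2.33 for IAA19, -1.62 for IAA17 and -1.44 for GH3.6. No slide held control and drought-stressed stomata of the same genotype. With the slide as a block, 3 members were called in stomata of Col-0 (IAA6, IAA19 and GH3.6) and 2 in stomata of *bam1* (IAA6 and IAA19), all lower. Of all 30665 probes tested, 459 were then called in stomata of Col-0 (260 higher, 199 lower) and 464 in stomata of *bam1* (226 higher, 238 lower). Without the block 1043 and 1767 probes were called.

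The families were next compared between the stomatal fraction and whole leaves under control conditions. In Col-0 6 of the 26 members were called, 3 higher and 3 lower in stomata, against 20.6% of all tested genes (12.2% were higher, 8.33% lower). In *bam1* 5 were called, 2 higher and 3 lower, against 18.4% (11.6% higher and 6.84% lower). The members' share was near that of all genes. These control arrays are also the controls of the drought comparisons. IAA26 and IAA11 were called higher and IAA3, IAA19 and IAA6 lower in both genotypes, and IAA18 was called higher in Col-0. The median over members was -0.26 in Col-0 and 0.01 in *bam1*, where that of all genes was 0.04 and 0.09.

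**Figure D3:**
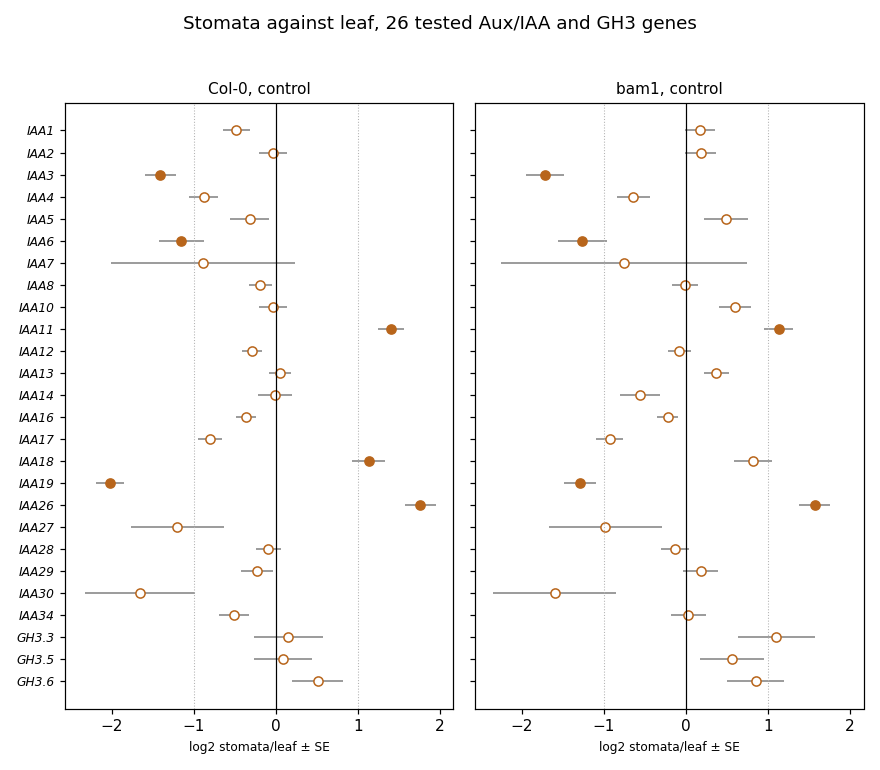
Log2 change in the stomatal fraction against whole leaves (± SE) of the 26 tested Aux/IAA and GH3 genes in control plants of Col-0 and *bam1*, with filled points for called genes and dotted lines at a 2-fold change. IAA11 and IAA26 lie to the right and IAA3, IAA6 and IAA19 to the left in both genotypes, and the GH3 genes are not called.

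IAA26, whose product was found as a protein that binds phytochrome, was the member most raised in stomata. In Col-0 it was at 11.36, 11.40 and 11.15 in leaves and at 13.21 and 12.92 in stomata, where the third array was an outlier spot and was left out (1.76 ± 0.19, 3.39-fold, adjusted p 6.0e-06). In *bam1* it was at 11.05, 11.31 and 11.53 in leaves and 13.21 and 12.52 in stomata (1.57 ± 0.19, 2.97-fold, adjusted p 2.7e-05). No leaf array overlapped with a stomatal array. Under drought IAA26 stayed at 12.73 to 13.03 in stomata of both genotypes and at 11.13 to 11.57 in leaves, and no drought change was called. Its dimmer probe was higher by 0.59 and 0.79 and not called.

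IAA11 was at 10.18, 10.42 and 10.20 in leaves and 11.86, 11.76 and 11.38 in stomata of Col-0. In *bam1* it was at 10.25, 10.30 and 10.54 against 11.75 and 11.24. Stomatal arrays were all above leaf arrays. The change was 1.40 ± 0.16 (adjusted p 6.1e-06) in Col-0 and 1.13 ± 0.18 (adjusted p 1.8e-04) in *bam1*, and in *bam1* it was under 2-fold with the slide as a block (0.96) or when stomatal control replicate 1 was left out (0.87). IAA18, known from a mutant with altered embryo and root development, was at 11.29, 10.23 and 11.02 in leaves and 11.90, 11.95 and 12.08 in stomata of Col-0 (1.13 ± 0.20, adjusted p 3.5e-04). Without leaf control replicate 2, the lowest array, its change was 0.82, and over the mean of its 3 probes it was 0.68 and not called.

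Other repressors ran the other way. IAA3 was at 12.64, 13.30 and 13.29 in leaves and 11.58, 11.72 and 11.69 in stomata of Col-0 (-1.41 ± 0.19, adjusted p 2.8e-05). In *bam1* it was at 13.42 and 13.77 in leaves, with 1 outlier spot left out, and at 11.97 and 11.78 in stomata (-1.72 ± 0.23, adjusted p 5.0e-05). Leaves were above stomata on every array. IAA19, with the control values given above, differed in stomata by -2.02 ± 0.17 in Col-0 (4.05-fold lower, adjusted p 3.6e-07) and by -1.29 ± 0.19 in *bam1* (2.45-fold lower, adjusted p 9.1e-05). IAA6 differed by -1.15 ± 0.27 (adjusted p 0.00248) and -1.26 ± 0.30 (adjusted p 0.00374).

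These differences were less firm in *bam1*, where the 2 stomatal control arrays were apart. Without stomatal control replicate 1 of *bam1* the change of IAA6 was -0.76 (adjusted p 0.0924) and that of IAA19 -0.98, and the number of members called was 3, while it was 7 without replicate 2. Without leaf Col-0 control replicate 2 the change of IAA6 in Col-0 was -0.94. On slide 1, which held 1 control array each of leaves and stomata of Col-0, the differences were 1.85 for IAA26, 1.68 for IAA11, 0.60 for IAA18, -1.06 for IAA3, -0.96 for IAA6 and -2.17 for IAA19. IAA17 was lower in stomata at an adjusted p under 0.05 but under 2-fold (-0.80 in Col-0 and -0.93 in *bam1*), with -1.33 and -1.20 for its second probe, and IAA4 differed by -0.88 and -0.64. The vascular markers gave 3 calls higher and 2 lower of 8 in Col-0 and 4 and 2 in *bam1*, and 1 of 8 and 2 of 8 epidermal markers were called higher. Their part in the differences of the repressors was not tested.

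**Figure D4:**
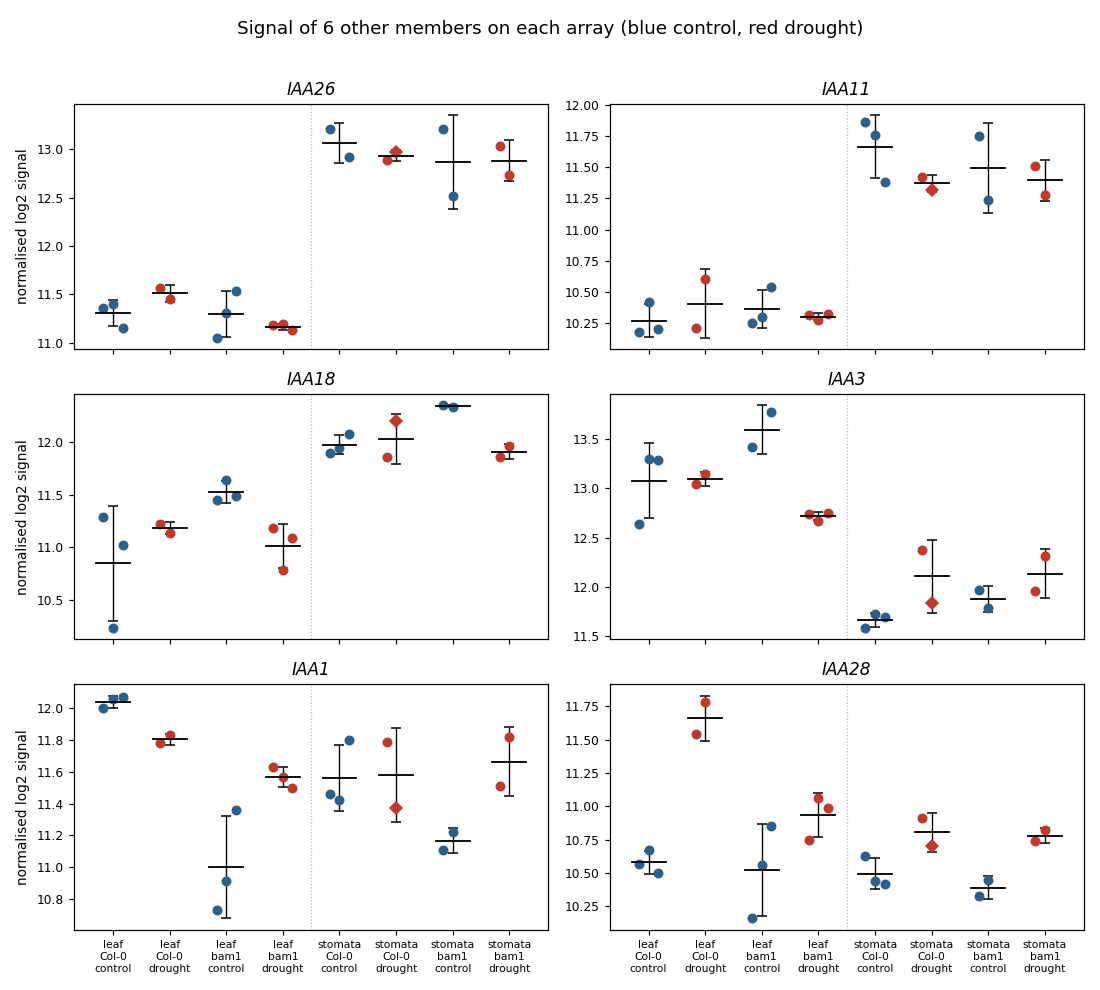
Normalised log2 signal of IAA26, IAA11, IAA18, IAA3, IAA1 and IAA28 on each array of the 8 groups, with control arrays in blue, drought arrays in red, the group mean as a black line and its SD as the error bar; the diamond is the array labelled drought replicate 2 of Col-0 stomata. IAA26 and IAA11 are higher and IAA3 lower in stomata on all arrays, and IAA28 is highest in drought-stressed leaves of Col-0.

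Between the genotypes 1 member was called. IAA1, the repressor altered in *axr5*, was called lower in control leaves of *bam1*, where it was at 10.73, 10.91 and 11.36 against 12.00, 12.06 and 12.07 in Col-0 (-1.05 ± 0.16, 2.06-fold, adjusted p 0.00654). It was 1 of 26 members, where 0.46% of all genes were (0.329% higher and 0.131% lower). The groups did not overlap. The change was -0.91 without leaf *bam1* control replicate 1, and -0.73 (adjusted p 0.556) with the slide as a block. No member was called between genotypes in drought-stressed leaves (all genes 0.298%, with 0.0888% higher and 0.209% lower), control stomata (0.0575%, with 0.0418% higher and 0.0157% lower) or drought-stressed stomata (0.0261%, with 0.0209% higher and 0.00523% lower). Without the array labelled drought replicate 2, again no member was called in drought-stressed stomata, while 0.455% of all genes were (0.408% higher and 0.047% lower). The changes of the 26 members were negative in *bam1* for 19 in control leaves (median -0.21, all genes -0.04) and for 24 in drought-stressed leaves (median -0.22, all genes -0.01). In control stomata 12 were negative (median 0.05), and in drought-stressed stomata 13 were (median -0.01, or -0.10 without that array, where IAA27 had no value).

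Members that had a probe but were not tested were not well above background on all or most of the 20 arrays. IAA20, IAA31, GH3.1 and GH3.2 were well above background on 0 of 20 arrays, IAA33 on 2 and GH3.4 on 1. IAA20, IAA31 and IAA33 are Aux/IAA genes whose products lack or have an altered degradation motif. No probe matched IAA9, IAA15 or IAA32, which were not analysed here.

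The rest of the auxin pathway was read under drought from lists of receptors, ARFs, corepressors, synthesis, transport and inactivation genes, and SAUR genes, the small auxin up RNAs that promote cell expansion. SAUR genes had 3 higher and 15 lower of 55 tested in leaves of Col-0, and 2 and 18 in leaves of *bam1*. In stomata they had 0 and 6 in Col-0 and 0 and 13 in *bam1*. Of all tested genes 2.26% were called higher and 3.77% lower in leaves of Col-0, and 1.56% and 3.87% in leaves of *bam1*. In stomata the all-gene shares were 1.9% and 1.71% in Col-0 and 3.08% and 3.34% in *bam1*. These shares also stand beside the other lists below. The median change of the SAUR genes was -0.77 and -0.93 in leaves of Col-0 and *bam1*, and -0.51 and -0.62 in their stomata. Without the array labelled drought replicate 2, the SAUR median in Col-0 stomata was -0.53. In leaves of Col-0 the strongest falls were those of SAUR1 (-3.32 ± 0.32, adjusted p 2.3e-05) and SAUR3 (-2.83 ± 0.50, adjusted p 0.00174), while SAUR33 (1.3) and SAUR41 (1.12) rose. SAUR5 was at least 4.52-fold lower in stomata of Col-0, with or without that array, and at least 6.32-fold lower in stomata of *bam1*, and it was not well above background under drought in either, so that the bound was taken from the dimmest detected signal of each array. SAUR genes have near-identical copies whose RNA may bind the same probe.

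None of 15 ARF genes and none of the 5 corepressors TPL and TPR1 to TPR4 was called in any of the 4 drought comparisons by limma, with 2 ARF genes in leaves of *bam1*, 1 in stomata of Col-0 and 3 in stomata of *bam1* at an adjusted p under 0.05 but under 2-fold (0 in Col-0 stomata when the array labelled drought replicate 2 was left out). Of the 6 receptors only TIR1 was called, in stomata of *bam1* (-1.05 ± 0.20, adjusted p 0.00400). Of 14 tested carriers only the influx carrier LAX3 was called, in leaves of Col-0 (-1.06 ± 0.17, adjusted p 9.2e-04).

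Synthesis and inactivation genes had few calls but some large ones. YUC4, a flavin monooxygenase of auxin synthesis, was not well above background in control stomata and was at least 8.16-fold higher under drought in Col-0 (mean 5.86 against 2.83, adjusted p 1.4e-06; at least 9.23-fold without the array labelled drought replicate 2) and at least 5.29-fold higher in *bam1* (5.38 against 2.98, adjusted p 1.3e-05). Its drought effect differed between stomata and leaves by 3.02 in Col-0 (adjusted p 1.1e-04, or 3.2 without that array) and 2.33 in *bam1* (adjusted p 0.00175). These differences use the control values of stomata that were not well above background, so their size cannot be read exactly. YUC8 changed by -1.65 ± 0.22 in leaves of Col-0 and by -1.36 ± 0.20 in those of *bam1*. YUC9 was at least 5.13-fold lower in leaves of Col-0 (adjusted p 0.00398). GH3.17, which conjugates auxin to glutamate and belongs to the same enzyme family outside the 6 members, was called lower in all 4 comparisons, with -2.41 ± 0.27 and -2.43 ± 0.24 in leaves of Col-0 and *bam1*, and at least 3.31-fold and at least 3.96-fold lower in their stomata, where 2 of 3 and 1 of 2 control arrays were well above background. The bound in Col-0 stomata was at least 2.95-fold without the array labelled drought replicate 2, and TAA1, an enzyme of auxin synthesis, was then also called higher (1.01 ± 0.27, adjusted p 0.0366). TAA1 was named after its value was seen.

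**Figure D5:**
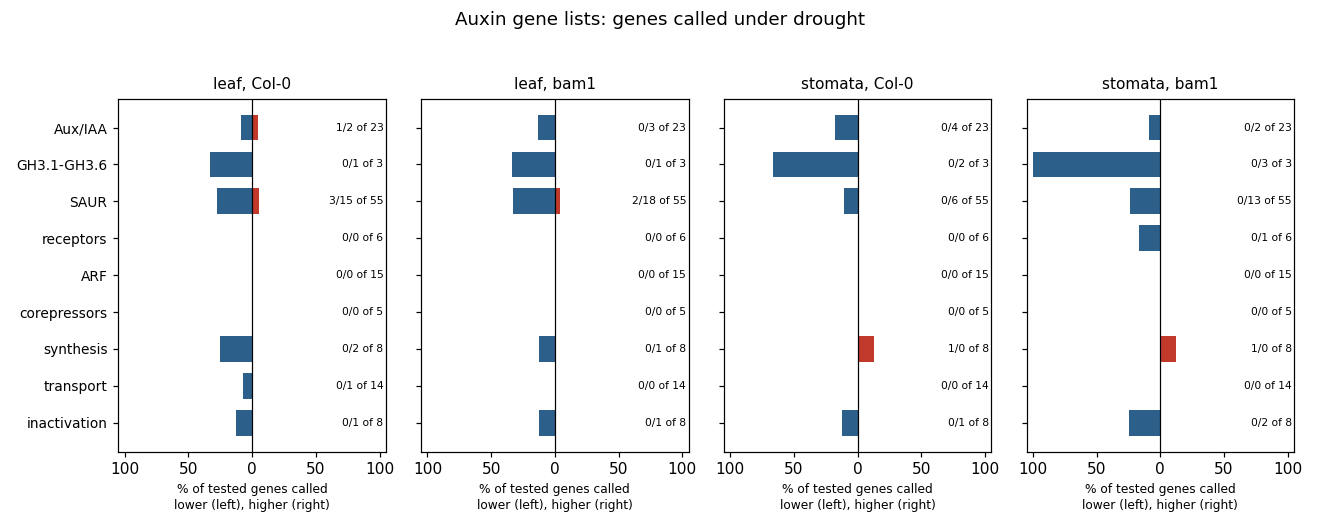
Share of tested genes called under drought in each auxin gene list, as percent higher (red, to the right) and lower (blue, to the left), with the number higher/lower of the number tested, in both tissues of Col-0 and *bam1*. GH3 genes had 3 of 3 called lower in stomata of *bam1*, ARF and corepressor genes had 0, and the synthesis list had 1 gene called higher in stomata of each genotype. Of all tested genes 1.9% were called higher and 1.71% lower in stomata of Col-0, and 3.08% and 3.34% in stomata of *bam1*. In leaves the shares were 2.26% and 3.77% in Col-0 and 1.56% and 3.87% in *bam1*.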

How the data were processed

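The deposited scanner files hold intensity values per spot on Agilent Arabidopsis V4 arrays, with background subtracted and the signal detrended by Feature Extraction (11.5.1.1 in the headers); flags for outlier, saturated and well-above-background spots are other columns of the deposited files. The authors' processed log2 values in the deposited series matrix were quantile-normalised and centred on each probe's median, per the study's methods, and were used as an alternative. Here log2 processed signals without outlier spots were quantile-normalised over 20 arrays, spots were averaged per probe, and group means were fitted with limma 3.58.1 (R 4.3.3; 12 residual degrees of freedom; median within-group SD 0.23). Of 43603 probes, 30665 were tested and 34348 (78.8%) were matched to a locus through RefSeq (TAIR10.1). Groups came from the labels. One array titled stomata Col-0 drought replicate 1 had a source name ending in replicate 2, and the title was used. Replicates correlated at 0.971 to 0.988, and arrays of different groups of the same tissue at 0.949 to 0.984. The small number of arrays per group limits the precision. The scripts were tested on simulated data. Alternatives were another scaling, background correction (normexp on median signals with an offset of 50, as mean signals were not used here), filter, fit, block, probe summary, the methods' t-test and leaving out each array. The members and lists were chosen with earlier results of these data known. Values are given for members called in any comparison, and at most the 3 largest called rises and falls per comparison for the other lists.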

Additional observations from a re-analysis of the deposited data

Results flagged for a closer look

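Both entries are probes outside the comparisons that were well above background on a drought array and exceeded every control array. GH3.4, a conjugating enzyme of the same group, was at 6.88 on drought replicate 1 of Col-0 stomata, where the highest control array was at 2.61 and the other 19 arrays were not well above background. IAA33 was at 4.64 on the array labelled drought replicate 2 of that group, close to the highest control array at 4.53. Each rests on 1 array, and the difference was not tested. No group had the 4 arrays needed to look for single outlying values.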

How the results depend on the processing

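The 31 called changes kept their direction under every alternative. Over the alternatives other than leaving out an array, 251 of the values stayed called and 64 did not, and over arrays left out 154 did and 32 did not. The counts over arrays left out include fits without the array labelled drought replicate 2 of Col-0 stomata for comparisons that do not use it. No call was lost in those fits, so these counts overstate how stable the calls were. With only the compared groups in the fit, fewer degrees of freedom remained and the members called numbered 2 in stomata of Col-0, 0 in stomata of *bam1* and 0 between genotypes in control leaves. Of all 30665 probes 142, 0 and 30 were called in the same order. With the slide as a block 3, 2 and 0 members and 459, 464 and 2 probes were called. After Benjamini-Hochberg adjustment the methods' t-test called 0 members under drought in leaves of Col-0, 2 in leaves of *bam1*, 0 in stomata of Col-0 and 0 in stomata of *bam1*, 0 in stomata against leaves of *bam1* and 0 between genotypes in control leaves. In that order it called 14, 743, 0, 0, 1253 and 0 of all probes. Unadjusted, it called 1 member (IAA5) and 434 probes between genotypes in drought-stressed leaves, where limma called 0 members and 82 probes. The cause was not tested.

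Without the array labelled drought replicate 2 of Col-0 stomata, an alternative added for every gene named after seeing the data, all probes called rose from 6 to 145 between genotypes in drought-stressed stomata and from 5 to 110 for the genotype difference of the drought effect there, with 0 members in either.

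For drought in stomata of *bam1*, dropping any array of the comparison left 1 array in a group. The number of members called is therefore not given there, and GH3.3 lost its call in each such fit, as described above. Fits that left 1 drought array of Col-0 are likewise not counted for drought. Dropping 1 control array of Col-0 gave 4 members called under drought in leaves and up to 5 in stomata (5 without control replicate 2). Leaving out 1 array at a time gave 2 to 4 members called under drought in leaves of *bam1* (2 without control replicate 3). It gave 4 to 7 in stomata against leaves of Col-0, 3 to 7 in *bam1*, and 0 to 2 between genotypes in control leaves (0 without leaf *bam1* control replicate 1, 2 without replicate 3). Deviations of same-numbered control and drought arrays from their group means correlated at -0.267 to 0.160. In stomata of *bam1* both groups had 2 arrays, whose deviations mirror each other. The sign of the -0.267 there depends on the numbering alone and cannot show whether arrays deviated together. With the replicate block 4, 3, 4 and 5 members were called in the 4 drought comparisons, and with the numbers of stomata *bam1* drought crossed, an alternative chosen after seeing the data, 5 in stomata of *bam1*. All probes called were 1614, 1445, 918 and 1709 of 30665 with that block, and 1785 with the numbers crossed. Scaling by the 75th percentile gave 5, 5, 6 and 5 members, adding IAA29 in leaves of Col-0 and IAA3 in leaves of *bam1*, and in stomata of Col-0 turned the split of all probes from 546 higher and 497 lower to 344 and 572. All probes called with this scaling were 1765, 1516, 916 and 1674, against 1672, 1494, 1043 and 1767 in the main fit.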
